A study of Mus musculus with 12 samples.

Results

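Vitamin A carriers, retinoic acid enzymes and retinoic acid receptors were followed in mouse granulosa cells, which line the ovarian follicle and nourish the oocyte inside it. The set held 9 genes, of the 18193 genes with a probe set that names a single gene, and each was measured by 1 probe set. The genes were Rbp4, Stra6, Crabp1, Crabp2, Aldh1a1, Aldh1a2, Cyp26b1, Rara and Rarb. They were taken by their symbols, and the set was chosen by the centred log2 values described here, since Rbp4, Aldh1a1 and Cyp26b1 differ in them between the groups. The values of those 3 genes are therefore given as a description, with the standard error (SE) of each difference and no test, and the other 6 genes were tested. RNA was hybridised to 12 single-colour Affymetrix arrays, 3 for each of 4 groups. The groups were Inha-/- cells after PMSG and hCG, wild type cells after PMSG and hCG, Inha-/- cells after PMSG alone, and wild type cells after PMSG alone. All mice were 21 days old, of the strain given as C57BL/6J;129S5/SvEvBrd, and all were given PMSG (pregnant mare serum gonadotropin, a substitute for follicle-stimulating hormone) at 5 IU for 44 to 46 h. The hCG groups also received 5 IU of human chorionic gonadotropin, which acts like luteinizing hormone, for 6 h. Inha encodes the alpha subunit of inhibin, a gonadal hormone that opposes activin, and mice without it are known to develop gonadal tumours of the sex cord-stromal type. The cells were released by puncturing antral follicles, a step that can also release other cells of the ovary.

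Vitamin A reaches tissues as retinol bound to RBP4 in plasma, and STRA6 is the membrane receptor that takes it up. Inside the cell, retinol is oxidised to retinaldehyde by retinol and alcohol dehydrogenases, and retinaldehyde is oxidised irreversibly to retinoic acid by the ALDH1A enzymes. Retinoic acid is bound in the cytosol by CRABP1 and CRABP2, acts in the nucleus on RAR and RXR receptors, and is broken down by CYP26 enzymes. In the ovary, retinoic acid is best known for starting meiosis in fetal germ cells, and CYP26B1 is known for protecting germ cells of the fetal testis from it.

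Each value is a log2 expression value minus the median of its probe set over the 12 arrays. It shows how a sample differs from the other samples, and it gives no level and no order between genes. For the same reason a marker gene of granulosa cells could not be shown as present or absent. In the Inha-/- arrays the Inha probe set lay between -7.40 and -5.40, against 5.40 to 5.87 in wild type arrays, so the labels of genotype held on 12 of 12 arrays. The SD over all probe sets of an array ran from 0.371 to 0.727, widest in replicate 3 of wild type after hCG. Nothing in the labels beyond the word independent says whether replicates came from separate mice, so p-values measure the spread between these samples. Tests were made on all 45037 probe sets that are not controls, with limma and Benjamini-Hochberg adjustment over all of them, and an adjusted p below 0.05 counted as a call. The comparisons share groups of samples (wild type after PMSG enters both the genotype comparison after PMSG and the hCG comparison in wild type), so they are not independent of each other.

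In PMSG-primed cells, Rbp4 and Cyp26b1 were higher in Inha-/- than in wild type cells, and Aldh1a1 and Aldh1a2 were lower. Rbp4, the plasma retinol carrier, differed most, being 4.59 ± 0.40 (SE) higher on the log2 scale in Inha-/- than in wild type cells after PMSG. Aldh1a2, a retinaldehyde dehydrogenase, fell by 2.42 ± 0.34 on the same scale, and it was the only one of the 6 tested genes that was called in any of the 5 contrasts. Over all probe sets, 1.04% were called higher and 1.22% lower in Inha-/- cells after PMSG. Counting probe sets whose 3 arrays of one group all lay to one side of the 3 of the other, 5 of the 9 genes did so after PMSG (Rbp4, Crabp2, Aldh1a1, Aldh1a2 and Cyp26b1), against 15.9% of all probe sets, and 3 of these 5 had been picked for differing. In bulk RNA, fewer cells of a type and less RNA per cell cannot be told apart.

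**Figure D1:**
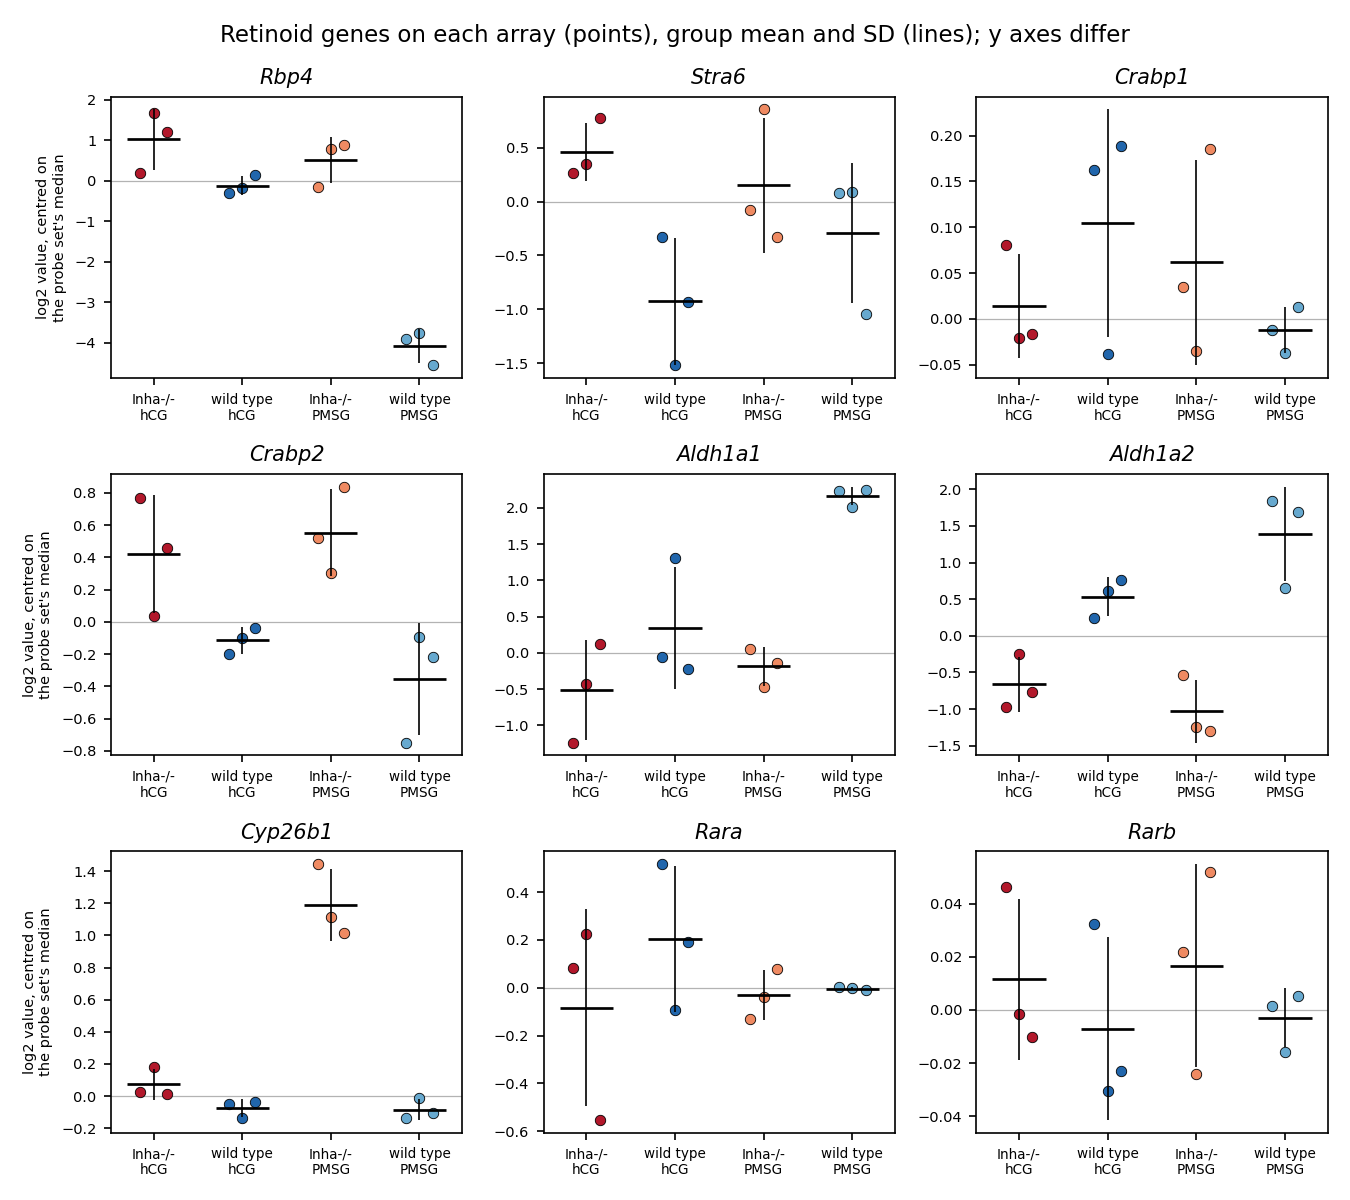
Centred log2 values (y axis, a separate range for each gene) of the 9 retinoid genes in the 4 groups (x axis), with a point for each array, a horizontal line for the group mean and a vertical line for the SD (n = 3). Rbp4 lies between -4.55 and -3.77 on the wild type PMSG arrays and at -0.31 or above on the other 9, and Cyp26b1 is above 1 on the 3 Inha-/- PMSG arrays only.

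The promoters below are those of the genes picked for their differences and of Aldh1a2, the tested gene that was called. They are windows of 250 bases before to 50 bases after a transcription start in RefSeq (GRCm38.p6), written 5′ to 3′ on the strand of the gene. RefSeq windows were matched for 8 of the 9 genes. For Rbp4 and Aldh1a1, which have 2 windows each, the one shown was picked after the sequences were seen, for the TATAAA of Rbp4 and the CCAAT of Aldh1a1. Rbp4 lies at chr19:38116620-38125321 and its window at chr19:38124762-38125061 on the minus strand. Aldh1a1 lies at chr19:20492583-20643463 with its window at chr19:20601718-20602017 on the plus strand. Aldh1a2 lies at chr9:71215789-71296243 with its window at chr9:71215539-71215838 on the plus strand. Cyp26b1 lies at chr6:84571414-84593908 with its window at chr6:84593761-84594060 on the minus strand. Capitals mark, on either strand, the letters of 6 motifs. TATAAA is the TATA box that places the start of transcription. CCAAT and GGGCGG are the common promoter motifs known as the CCAAT and GC boxes. A core of the cAMP response element reads TGACG. The core of the site of GLI factors was searched as ACCACCC. The octamer of POU factors was searched as ATGCAAAT.
Rbp4: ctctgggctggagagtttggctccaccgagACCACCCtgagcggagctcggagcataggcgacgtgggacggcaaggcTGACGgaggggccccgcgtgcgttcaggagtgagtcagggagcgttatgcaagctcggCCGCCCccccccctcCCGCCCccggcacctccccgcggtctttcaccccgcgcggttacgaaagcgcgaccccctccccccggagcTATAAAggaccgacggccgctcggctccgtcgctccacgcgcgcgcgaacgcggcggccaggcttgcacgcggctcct
Aldh1a1: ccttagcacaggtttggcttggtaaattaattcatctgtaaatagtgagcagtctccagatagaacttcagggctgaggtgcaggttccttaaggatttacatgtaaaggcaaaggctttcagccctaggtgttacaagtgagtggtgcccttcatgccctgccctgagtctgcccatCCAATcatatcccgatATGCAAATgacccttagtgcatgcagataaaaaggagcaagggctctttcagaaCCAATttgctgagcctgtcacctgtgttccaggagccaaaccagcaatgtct
Aldh1a2: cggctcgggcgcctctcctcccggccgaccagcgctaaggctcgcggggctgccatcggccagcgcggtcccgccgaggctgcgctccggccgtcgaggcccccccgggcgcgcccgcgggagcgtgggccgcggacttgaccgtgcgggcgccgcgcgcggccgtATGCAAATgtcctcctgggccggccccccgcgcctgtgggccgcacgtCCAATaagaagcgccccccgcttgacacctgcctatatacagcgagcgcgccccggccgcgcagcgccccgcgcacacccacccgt
Cyp26b1: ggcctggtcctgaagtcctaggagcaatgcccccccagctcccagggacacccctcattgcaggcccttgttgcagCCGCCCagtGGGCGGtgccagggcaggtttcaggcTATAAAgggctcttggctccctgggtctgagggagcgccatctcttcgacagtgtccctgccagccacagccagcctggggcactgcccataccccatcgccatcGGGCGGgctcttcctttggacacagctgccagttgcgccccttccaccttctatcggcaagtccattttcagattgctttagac

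The Rbp4 window held TATAAA at bases -28 to -23 from the start, GC boxes at -114 to -109 and -99 to -94, TGACG at -172 to -168 and ACCACCC at -220 to -214. TATAAA occurred in 13.6% of all 32851 mouse promoter windows, GGGCGG in 35.7%, TGACG in 20.8% and ACCACCC in 4.61%. Both aldehyde dehydrogenase windows shown held the octamer, at -56 to -49 in Aldh1a1 and at -84 to -77 in Aldh1a2, a motif found in 1.74% of all windows. Both also held CCAAT (37.4% of windows), Aldh1a1 at -72 to -68 and -2 to 2 and Aldh1a2 at -36 to -32. The window of Aldh1a1 that is not shown (chr19:20492333-20492632) held none of the 6 motifs, and that of Rbp4 (chr19:38125272-38125571) had 40.7% G and C and no TATAAA. The Cyp26b1 window held TATAAA at -139 to -134 and 3 GC boxes, the one nearest the start at -34 to -29. Base composition differed widely, with 72% G and C in the Rbp4 window, 47% in Aldh1a1, 78% in Aldh1a2 and 62.3% in Cyp26b1, against a median of 52.7% over all windows. AGGTCA, a form of the half-site of retinoic acid receptors, was also searched, alone (16.3% of windows) and as a direct repeat spaced by 2 or by 5 bases (0.00913% of windows each). Other forms of the half-site were not searched. None of the 4 windows shown held AGGTCA, alone or repeated, which says only that these letters are not in these windows. The octamer and GLI core were added to the search after sequences and patterns had been seen, and a match is a description of the letters, not a site that is used.

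Rbp4 separated wild type cells after PMSG from every other sample. Its values were 0.21, 1.67 and 1.20 on the Inha-/- hCG arrays, -0.31, -0.19 and 0.14 on the wild type hCG arrays, -0.14, 0.79 and 0.89 on the Inha-/- PMSG arrays, and -3.90, -3.77 and -4.55 on the wild type PMSG arrays. The 3 wild type PMSG arrays lay more than 3 log2 units below the lowest of the other 9. Inha-/- cells were 1.14 ± 0.40 higher than wild type cells after hCG (2.21-fold) and 4.59 ± 0.40 higher after PMSG (24.0-fold), and the arrays did not overlap in either comparison. The response to hCG was 0.51 ± 0.40 in Inha-/- cells, with overlapping arrays, and 3.95 ± 0.40 (15.5-fold) in wild type cells, with no overlap. Single arrays moved the Inha-/- response, which was 0.18 without replicate 1 after PMSG, 0.19 without replicate 2 after hCG and 0.92 without replicate 1 after hCG. The difference between these responses was -3.44 ± 0.57. Within the pairs of PMSG arrays that share a number in their array names, Inha-/- minus wild type was 3.76 in replicates 1 and 4.56 in replicates 2.

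Stra6, the retinol uptake receptor (chr9:58063793-58154004), had values of 0.27, 0.35 and 0.77 on the Inha-/- hCG arrays, -0.33, -1.52 and -0.93 on the wild type hCG arrays, -0.08, 0.86 and -0.33 on the Inha-/- PMSG arrays, and 0.08, 0.084 and -1.05 on the wild type PMSG arrays. The genotypes separated after hCG and overlapped after PMSG. After hCG the difference was 1.39 ± 0.42 (2.62-fold), which did not pass the test (adjusted p = 0.0754), and after PMSG it was 0.44 ± 0.42 (adjusted p = 0.710). The hCG call depended on the fit: with array weights the difference was 1.62 (adjusted p = 0.0204), and with the least variable probe sets left out its adjusted p was 0.0315. Responses to hCG were 0.31 ± 0.42 in Inha-/- cells and -0.63 ± 0.42 in wild type cells, neither called (adjusted p = 0.832 and 0.541). Without single arrays, the difference after PMSG was 0.068 (without replicate 3 of wild type) or 0.091 (without replicate 2 of Inha-/-). It was -0.16 and 0.77 within the pairs of PMSG arrays that share a number in their names, in replicates 1 and 2. The Inha-/- response to hCG lay between 0.073 (without replicate 3 after PMSG) and 0.66 (without replicate 2 after PMSG). The wild type response was -0.34 without replicate 2 after hCG and -1.01 without replicate 3 after PMSG.

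Of the cytosolic binding proteins, Crabp2, which carries retinoic acid to its receptors (chr3:87948693-87953372), was at 0.77, 0.038 and 0.46 on the Inha-/- hCG arrays, -0.20, -0.10 and -0.038 on the wild type hCG arrays, 0.52, 0.30 and 0.84 on the Inha-/- PMSG arrays, and -0.75, -0.10 and -0.22 on the wild type PMSG arrays. All Inha-/- arrays lay above all wild type arrays of the same treatment. The differences were 0.53 ± 0.22 after hCG (1.45-fold, adjusted p = 0.204) and 0.91 ± 0.22 after PMSG (1.88-fold, adjusted p = 0.0779), so neither was called. With the number in the array names as a random block the PMSG difference was 0.87 and was called (adjusted p = 0.0239), while within the pairs of arrays that share that number it was 1.27 in replicates 1 and 0.40 in replicates 2. Crabp1, the other binding protein (chr9:54764748-54773110), spanned 0.228 log2 units over all 12 arrays, and its SD exceeded that of 30.3% of probe sets. Its differences between groups ran from -0.09 ± 0.08 between the genotypes after hCG to 0.12 ± 0.08 for the hCG response of wild type cells, with no call in any contrast.

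Aldh1a1 and Aldh1a2 are retinaldehyde dehydrogenases, which make retinoic acid, and both were lower in Inha-/- cells than in wild type cells after PMSG. Aldh1a1 had values of -1.24, -0.43 and 0.13 on the Inha-/- hCG arrays, -0.06, 1.31 and -0.23 on the wild type hCG arrays, 0.06, -0.47 and -0.13 on the Inha-/- PMSG arrays, and 2.23, 2.02 and 2.25 on the wild type PMSG arrays. Wild type cells after PMSG stood above all other samples. The Inha-/- difference was -0.85 ± 0.43 after hCG, with overlapping arrays, and -2.35 ± 0.43 after PMSG (5.09-fold lower), with none. The hCG value leaned on single arrays, being -0.49 without replicate 1 of Inha-/- and -0.37 without replicate 2 of wild type. Responses to hCG were -0.33 ± 0.43 in Inha-/- cells and -1.82 ± 0.43 in wild type cells, and their difference was 1.49 ± 0.61. The Inha-/- response had no settled size, being 0.033 without replicate 1 after hCG and -0.65 without replicate 3 after hCG. Aldh1a7, a close relative whose sequence may be read by the same probes, was at 0.39, -0.18 and -0.11 on the Inha-/- PMSG arrays, against 1.21, 1.08 and 1.17 on the wild type PMSG arrays. After hCG, Aldh1a7 was at -0.37, -0.39 and 0.11 on the Inha-/- arrays, against -1.05, 0.17 and -2.40 on the wild type arrays. Whether the probes read both genes was not tested.

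Aldh1a2, the other dehydrogenase with an octamer in its window, was at -0.97, -0.24 and -0.77 on the Inha-/- hCG arrays, 0.24, 0.61 and 0.76 on the wild type hCG arrays, -0.54, -1.25 and -1.30 on the Inha-/- PMSG arrays, and 1.83, 0.65 and 1.69 on the wild type PMSG arrays. Every Inha-/- array was below 0 and every wild type array above it. After PMSG the gene fell by 2.42 ± 0.34 (5.35-fold lower in Inha-/- cells, adjusted p = 0.00888). The call was lost with array weights (-1.97, adjusted p = 0.105) and with only the arrays of those groups in the fit (adjusted p = 0.0802). After hCG the difference was -1.20 ± 0.34 (2.29-fold lower) with no overlap, and it missed the threshold (adjusted p = 0.0601), which it passed with the least variable probe sets left out (adjusted p = 0.0273). Aldh1a2 gave 0.37 ± 0.34 with hCG in Inha-/- cells (adjusted p = 0.832) and -0.85 ± 0.34 in wild type cells (adjusted p = 0.187). The second of these values was -1.22 and was called when replicate 2 of wild type after PMSG, the lowest of its group, was left out (adjusted p = 0.0456). The difference between the responses, 1.22 ± 0.49, was not called (adjusted p = 0.440).

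Cyp26b1, the retinoic acid hydroxylase, stood apart in a single group. It was at 0.024, 0.18 and 0.012 on the Inha-/- hCG arrays, -0.048, -0.14 and -0.036 on the wild type hCG arrays, 1.44, 1.11 and 1.02 on the Inha-/- PMSG arrays, and -0.14, -0.012 and -0.10 on the wild type PMSG arrays. The 9 arrays outside the Inha-/- PMSG group lay between -0.14 and 0.18. Inha-/- cells were 0.15 ± 0.10 above wild type cells after hCG and 1.28 ± 0.10 above them after PMSG (2.42-fold). In Inha-/- cells the value after hCG was 2.17-fold lower than after PMSG alone (log2 difference -1.12 ± 0.10), and in wild type cells the difference was 0.01 ± 0.10. The responses thus differed by -1.13 ± 0.15. Within the pairs of PMSG arrays that share a name number, Inha-/- minus wild type was 1.58 and 1.12 for Cyp26b1, -2.17 and -2.49 for Aldh1a1, and -2.37 and -1.90 for Aldh1a2, in replicates 1 and 2.

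The receptors gave no call. Rara, which mediates the action of retinoic acid on its target genes (chr11:98927800-98974942) spanned 1.07 log2 units, and its differences ran from -0.29 ± 0.20 between the genotypes after hCG to 0.21 ± 0.20 for hCG in wild type cells. On the wild type PMSG arrays it lay between -0.0095 and 0.002, and on the Inha-/- hCG arrays between -0.55 and 0.22. Rarb, itself a well-known target of retinoic acid (chr14:16430839-17082331), spanned 0.0826 log2 units over the 12 arrays, and 1.59% of probe sets had a smaller SD. Centred values cannot tell a steady transcript from one that was not detected. Over both genes and all contrasts the adjusted p was 0.587 or more.

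**Figure D2:**
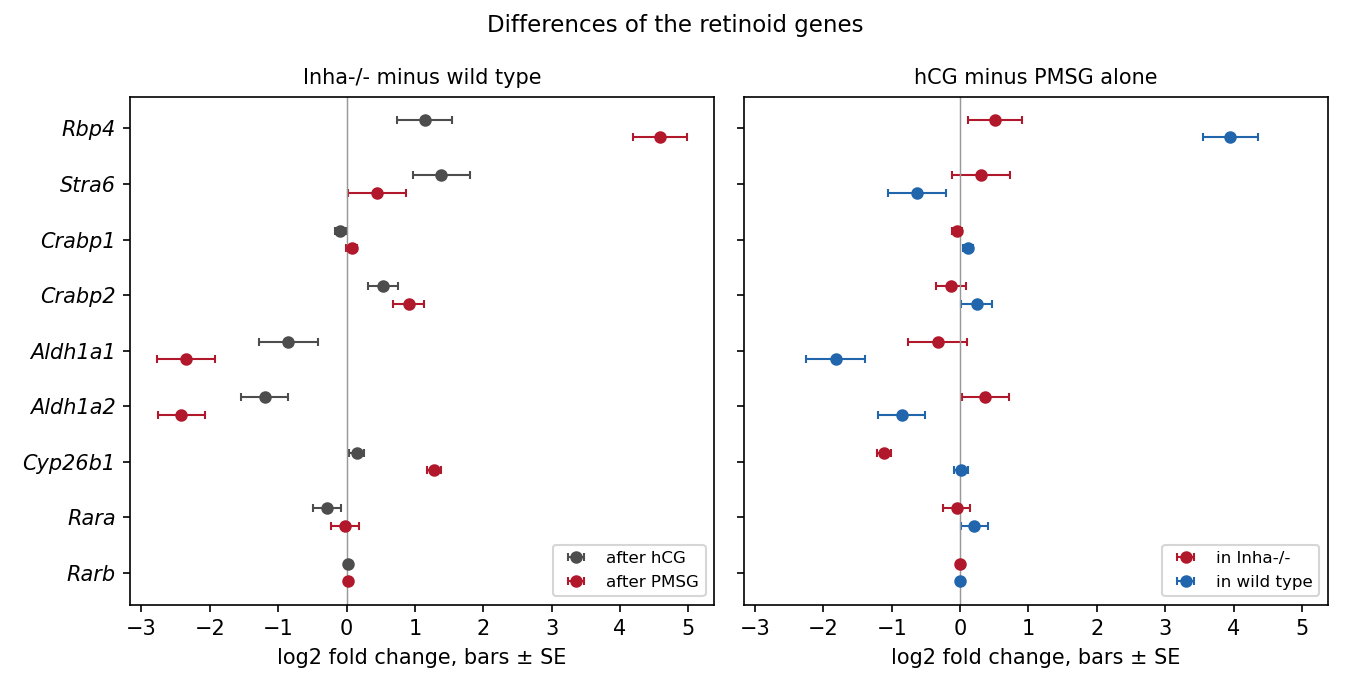
Log2 fold changes (x axis) of the 9 retinoid genes (y axis) with bars of ± SE, for Inha-/- minus wild type after hCG and after PMSG (left) and for hCG minus PMSG alone in Inha-/- and in wild type cells (right). Rbp4 in the PMSG comparison of genotypes (4.59) and in the wild type response to hCG (3.95) lies farthest to the right, and Aldh1a1 and Aldh1a2 lie farthest to the left among the genotype differences after PMSG.

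After hCG, 0 of the 6 tested genes were called between the genotypes by limma, and 3 of them (Stra6, Crabp2 and Aldh1a2) had an unadjusted p under 0.05. By adjusted p, 5.13% of all probe sets were called higher and 4.95% lower in that comparison. For the counts at an unadjusted p, here and below, no share over all probe sets was taken, so they have no background. The arrays did not overlap for 5 of the 9 genes, Rbp4, Stra6, Crabp2, Aldh1a2 and Cyp26b1, against 23.6% of all probe sets. Of these, Rbp4 and Cyp26b1 had been picked for differing. For the response to hCG in Inha-/- cells, 0 of the 6 were called, where 0.930% of all probe sets were called higher and 0.0799% lower. Of the 6, 0 had an unadjusted p under 0.05. In wild type cells 0 of the 6 were called, where 5.10% of all probe sets were called higher and 4.66% lower. Of the 6, 1 (Aldh1a2) had an unadjusted p under 0.05. The hCG and PMSG arrays did not overlap for Cyp26b1 in Inha-/- cells (9.22% of all probe sets) and for Rbp4 and Aldh1a1 in wild type cells (25.1% of all probe sets). These are the genes picked for differing, so their separation is a description, and none of the 6 tested genes separated in either response. The interaction of genotype with hCG called 0 of the 6, where 0.147% of all probe sets were called higher and 0.613% lower. Aldh1a2 was again under an unadjusted 0.05.

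Around these genes, 87 other genes of vitamin A uptake, oxidation, clearance, reception and known retinoic acid response were listed. Of these, 77 were measured by 158 probe sets. The lists were chosen with earlier results of these data known, so their shares beside those of all probe sets are a description. After hCG, 19 probe sets were called higher and 4 lower in Inha-/- than in wild type cells (12.03% and 2.53%). Of all probe sets, 5.13% and 4.95% were, and the median difference was 0.004 against -0.002 for all. After PMSG, 5 were higher and 4 lower (3.16% and 2.53%, against 1.04% and 1.22% of all probe sets, median 0.04 against 0.04). For hCG in Inha-/- cells, 7 were higher (4.43%) and 0 lower, against 0.930% and 0.0799% of all probe sets. At an unadjusted p under 0.05, 16 were higher and 4 lower. In wild type cells 11 were higher and 17 lower (6.96% and 10.8%, against 5.10% and 4.66% of all probe sets). The interaction called 0 higher and 1 lower (0.633%) by limma, against 0.147% and 0.613% of all probe sets. At an unadjusted p under 0.05 it gave 19 higher and 2 lower. The shares of all probe sets at an unadjusted p were not counted, so these counts have no background. Differences over all probe sets also reached farther up than down. Their 5% and 95% quantiles were -0.75 and 0.93 for the interaction, and -0.48 and 0.65 for hCG in Inha-/- cells. Several probe sets can read the same gene, so these counts are not counts of independent genes.

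The enzyme list had 39 probe sets. Of these, 4 were higher and 1 lower in Inha-/- than in wild type cells after hCG (all probe sets, 5.13% and 4.95%), and 2 were lower after PMSG (all probe sets, 1.22%). With hCG, 3 rose in Inha-/- cells (all probe sets, 0.930%), and 4 rose and 6 fell in wild type cells (all probe sets, 5.10% and 4.66%). Adh7 and Rdh10 rose with hCG in both genotypes. Adh7, an alcohol dehydrogenase active on retinol, was at 1.34, 2.35 and 2.35 on the Inha-/- hCG arrays and 3.13, 2.94 and 3.93 on the wild type hCG arrays, against -2.81, -2.28 and -2.22 on the Inha-/- PMSG arrays and -2.27, -1.34 and -2.26 on the wild type PMSG arrays. All 6 hCG arrays lay above all 6 PMSG arrays. The rise was 4.45 ± 0.38 in Inha-/- cells (21.9-fold, adjusted p = 0.000445) and 5.29 ± 0.38 in wild type cells (39.2-fold, adjusted p = 5.03e-05), and a second Adh7 probe set was called too, at 3.12 in Inha-/- and 4.05 in wild type cells. Rdh10, a retinol dehydrogenase that the embryo needs, was at 0.45, 2.42 and 1.68 on the Inha-/- hCG arrays and 0.93, 0.94 and 1.46 on the wild type hCG arrays, with all 6 PMSG arrays between -1.43 and -0.45. It rose by 2.48 ± 0.44 in Inha-/- cells (adjusted p = 0.0350) and 1.86 ± 0.44 in wild type cells (adjusted p = 0.0291). The Inha-/- call was lost without any one array after PMSG or without replicate 2 or 3 after hCG, with values of 2.03 to 2.67 (adjusted p = 0.0538 to 0.128), and the wild type call was lost when any of its 6 arrays was left out (1.69 to 2.02, adjusted p = 0.0520 to 0.116). The second Rdh10 probe set, at 2.94 in Inha-/- and 2.11 in wild type cells, was not called.

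Aldh1a3, the remaining retinaldehyde dehydrogenase of the family, rose with hCG in wild type cells by 1 of its 3 probe sets, the one that varied most. It was at 0.011, 0.042 and -0.039 on the Inha-/- hCG arrays, 2.58, 2.29 and 2.30 on the wild type hCG arrays, and between -0.12 and 0.13 on all 6 PMSG arrays. The wild type rise was 2.44 ± 0.09 (5.42-fold, adjusted p = 9.9e-07), against 0.02 ± 0.09 in Inha-/- cells (adjusted p = 0.928). The difference of the responses, -2.42 ± 0.13, was called (adjusted p = 7.47e-05), and between the genotypes after hCG the gene fell by 2.39 ± 0.09 (adjusted p = 2.34e-06). The 2 other Aldh1a3 probe sets gave 0.65 ± 0.38 and 0.20 ± 0.09 with hCG in wild type cells and were not called (adjusted p = 0.434 and 0.271). Which of the 3 reads the main transcript was not tested.

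Retsat, which saturates a double bond of retinol, and Rdh14, a retinol dehydrogenase, moved the other way with hCG in wild type cells. Retsat was at -0.10, 0.043 and 0.74 on the Inha-/- hCG arrays, against -1.92, -1.08 and -1.40 on the wild type hCG arrays. It fell by 1.67 ± 0.27 with hCG in wild type cells (adjusted p = 0.00537) and was 1.70 ± 0.27 higher in Inha-/- than in wild type cells after hCG (adjusted p = 0.00435). Rdh14 fell by 0.79 ± 0.11 with hCG in wild type cells (adjusted p = 0.00220), and its 2 other probe sets were not called there. Adh1, another alcohol dehydrogenase, was at -3.24, -3.32 and -2.19 on the Inha-/- PMSG arrays, against 0.21, -0.21 and 0.81 on the wild type PMSG arrays. It fell by 3.19 ± 0.64 (adjusted p = 0.0386), a call lost when any of these 6 arrays was left out (adjusted p = 0.0590 to 0.132). Rdh9 fell by 1.69 ± 0.27 in the same comparison (adjusted p = 0.0156), and lost its call without replicate 1 or replicate 3 of wild type (adjusted p = 0.0513 and 0.0613).

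In the transport list of 27 probe sets, 3 were higher and 2 lower in Inha-/- than in wild type cells after hCG (5.13% and 4.95% of all probe sets). After PMSG 1 was higher (1.04% of all), and 3 rose and 3 fell with hCG in wild type cells (5.10% and 4.66% of all). Lrp1, an endocytic receptor that clears chylomicron remnants, was higher in Inha-/- cells at 2.19 ± 0.21 after hCG (adjusted p = 0.000368) and 1.04 ± 0.21 after PMSG (adjusted p = 0.0358). The PMSG call was lost without any one replicate of wild type or without replicate 2 or 3 of Inha-/- (adjusted p = 0.0571 to 0.119). The other Lrp1 probe set, at 1.63 after PMSG (adjusted p = 0.158), was called in neither comparison. Dgat1, which can esterify retinol, rose by 1.12 ± 0.17 with hCG in wild type cells (adjusted p = 0.00443), and its other probe set was not called there. Clearance genes other than Cyp26b1 were measured by 2 probe sets, and 1 of them was called: Cyp2s1 fell by 1.80 with hCG in wild type cells (adjusted p = 0.0151), and lost the call without replicate 1 of wild type after PMSG (-1.60, adjusted p = 0.0544).

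Of 42 probe sets of other receptors and cofactors, 4 fell with hCG in wild type cells (4.66% of all probe sets), 3 of Nrip1, a corepressor recruited by RAR and RXR, and 1 of Nr2c1, an orphan receptor. The 4 other probe sets of Nr2c1 were not called there. Leaving out single arrays ended the Nr2c1 call (-0.83 without replicate 2 after PMSG, adjusted p = 0.0572, and -0.70 without replicate 3 after hCG, adjusted p = 0.0872). Nrip1 fell by 2.31 by 1 probe set (adjusted p = 0.0213), a call lost without replicate 2 or 3 after PMSG or replicate 1 or 3 after hCG (-2.20 to -1.99, adjusted p = 0.0667 to 0.0878). With the number in the array names as a random block, the wild type calls of Cyp2s1, Nr2c1 and of 2 Nrip1 probe sets, that one included, were lost. Between the genotypes after hCG, Nrip1 was 2.14 higher in Inha-/- cells by the same probe set (adjusted p = 0.0290), and the call was lost without any one Inha-/- array or without replicate 1 or 3 of wild type (adjusted p = 0.0778 to 0.108). Ncoa1, a coactivator of nuclear receptors, was called by 1 of its 3 probe sets, at -0.67 after hCG (adjusted p = 0.0257) and -0.80 after PMSG (adjusted p = 0.0328). Its call after PMSG was lost when any array compared was left out (adjusted p = 0.0550 to 0.112), and its call after hCG when any but replicate 1 of Inha-/- was (adjusted p = 0.0505 to 0.0896).

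Genes known to respond to retinoic acid in other cells were measured by 48 probe sets. In Inha-/- against wild type cells, 11 probe sets were higher after hCG (5.13% of all probe sets) and 4 higher and 1 lower after PMSG (1.04% and 1.22% of all). The 11 came from 3 of the 23 genes measured, Meis2, Tgm2 and Rarres2. Tgm2, a transglutaminase, was at 0.51, 2.13 and 1.56 on the Inha-/- hCG arrays, -1.18, -0.94 and -0.996 on the wild type hCG arrays, 0.77, 1.88 and 1.36 on the Inha-/- PMSG arrays, and -0.51, -0.67 and -0.67 on the wild type PMSG arrays. It was higher by 2.44 ± 0.38 in Inha-/- cells after hCG (5.43-fold, adjusted p = 0.00395), and 5 of its 6 probe sets were called in that comparison. Rarres2, the gene of chemerin, was higher in Inha-/- cells by 2.72 ± 0.24 after hCG (adjusted p = 0.000262) and 1.68 ± 0.24 after PMSG (adjusted p = 0.00867, or 0.0628 with only the arrays of those groups in the fit). After PMSG another Rarres2 probe set was called at 1.86 (adjusted p = 0.0174), and a further one, at 0.45, was not (adjusted p = 0.619). Bhlhe40, a transcriptional repressor, rose with hCG by 3.03 ± 0.40 in Inha-/- cells (adjusted p = 0.00664, or 0.139 with only the arrays of those groups) and 2.82 ± 0.40 in wild type cells (adjusted p = 0.00285). With hCG in wild type cells, 4 probe sets of the list rose and 3 fell (5.10% and 4.66% of all). Those that fell were of Rec8, a meiotic cohesin subunit, at -0.25 (adjusted p = 0.00537), of Gata4, a transcription factor, at -1.52 (adjusted p = 0.0179), and of Rarres2 at -0.88 (adjusted p = 0.0475). Further probe sets of Gata4 and Rarres2 were not called in that comparison. Gata4 lost its call without replicate 2 or 3 after PMSG (adjusted p = 0.0611 and 0.0556), and Rarres2 without replicate 1 or 3 of either treatment (adjusted p = 0.131 to 0.183).

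The probe sets of Meis2, a homeobox gene, disagreed on its response to hCG, with 3 called in Inha-/- cells and 2 in wild type cells. By one of them Meis2 rose by 2.74 ± 0.47 in Inha-/- cells (adjusted p = 0.0296) and 2.29 ± 0.47 in wild type cells (adjusted p = 0.0157). The Inha-/- call of that probe set was lost without replicate 2 after PMSG or any one replicate after hCG (2.60 to 2.94, adjusted p = 0.0553 to 0.127), and the wild type call without replicate 2 after PMSG (2.25, adjusted p = 0.0555). By another it rose by 0.88 ± 0.14 in Inha-/- cells (adjusted p = 0.0182), against 0.14 ± 0.14 in wild type cells (adjusted p = 0.817), and the difference of the responses was not called (adjusted p = 0.170). The Inha-/- call of this other probe set was lost without replicate 2 or 3 after PMSG or replicate 3 after hCG (0.84 to 0.92, adjusted p = 0.0508 to 0.0687).

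**Figure D3:**
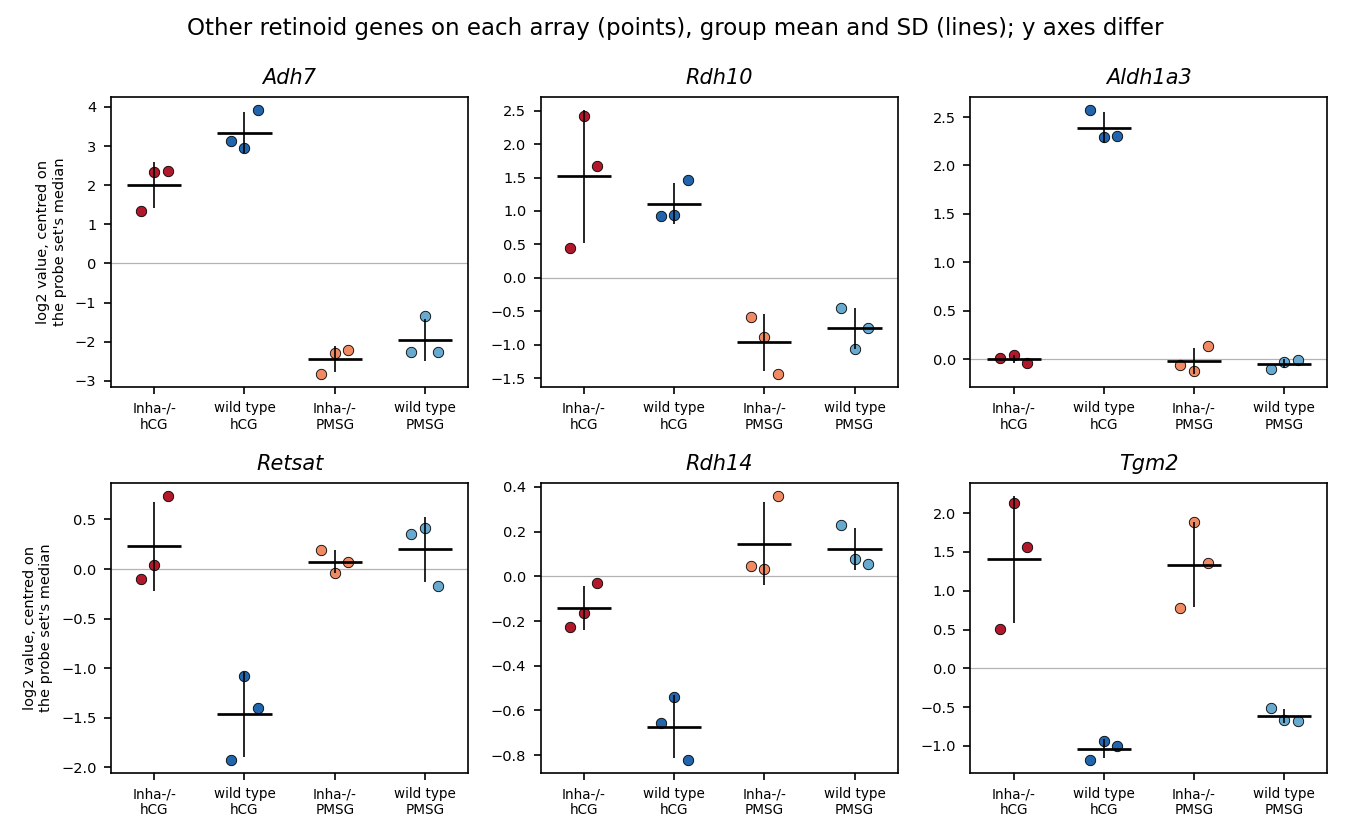
Centred log2 values (y axis, a separate range for each gene) of 6 other genes of the retinoid lists in the 4 groups (x axis), with a point for each array, a horizontal line for the group mean and a vertical line for the SD (n = 3). Adh7 and Rdh10 are above 0 on all hCG arrays, and Aldh1a3 is above 2 on the wild type hCG arrays only.

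The genes most like Rbp4 over the 12 arrays, by the root mean square difference of centred values, were Hhip at 0.346, Gli3 at 0.869 and Heyl at 0.874. Hhip, which binds hedgehog ligands, averaged 0.85 on the Inha-/- hCG arrays, 0.62 on the Inha-/- PMSG arrays and -4.08 on the wild type PMSG arrays, and lay between -0.35 and 0.35 on the wild type hCG arrays. For Aldh1a1 the nearest genes were Plcxd2 at 0.310, Ppm1k at 0.368 and Gstm7 at 0.373. For Cyp26b1 they were Tvp23a at 0.175, Zik1 at 0.247 and Dab1 at 0.266. These are the smallest differences among all genes, so nearness of this kind is a description of the 12 arrays.

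Markers of other ovarian cells differed between the genotypes along with the retinoid genes. Over 13 oocyte genes the median of an array lay between 0.23 and 2.90 in Inha-/- after hCG, -1.46 and -0.59 in wild type after hCG, 0.76 and 2.07 in Inha-/- after PMSG, and -1.33 and -0.66 in wild type after PMSG. Over 16 genes of theca and stroma it lay between 0.0061 and 2.08 in Inha-/- after hCG, -1.03 and -0.42 in wild type after hCG, 0.50 and 1.65 in Inha-/- after PMSG, and -0.56 and -0.16 in wild type after PMSG. Each marker gene was counted by 1 probe set, the one with the largest SD over all arrays. The shares of all probe sets were not picked for varying, so they are not a matched background for these counts. Of the 13 oocyte genes, 7 were called higher in Inha-/- cells after hCG (5.13% of all probe sets). After PMSG only 1 of them, Dppa3, was called (1.04% of all). Of the 16 theca and stroma genes, 8 were called higher and 2 lower in Inha-/- cells after hCG (5.13% and 4.95% of all probe sets). After PMSG 5 were higher and 2 lower (1.04% and 1.22% of all). The list was divided, with Gli2, Acta2, Myh11, Col1a2 and Col3a1 higher in both comparisons and Cyp11a1 and Star lower in both. Of 11 surface epithelium genes, 5 were called lower in Inha-/- cells after hCG (4.95% of all probe sets) and 5 after PMSG (1.22% of all). With every probe set of these lists counted, 8 of 16 for oocytes were higher after hCG and 1 after PMSG. For theca and stroma, of 34 probe sets, 11 were higher and 4 lower after hCG, and 6 higher and 4 lower after PMSG. For surface epithelium, 7 of 17 were lower in each comparison. Replicate 1 of Inha-/- after hCG, which had the lowest Rbp4 of its group, also had the lowest oocyte median and the lowest theca and stroma median. In Inha-/- after PMSG, the array with the lowest Rbp4 (replicate 1) had the lowest theca and stroma median. The array with the highest Rbp4 in that group (replicate 3, 0.89) had the lowest oocyte median (0.76). In wild type cells, where Rbp4 was 3.95 higher after hCG, no oocyte marker was called and theca and stroma markers were called for Star (higher) and Hsd3b1 (lower). Granulosa markers moved in the same comparison, with 4 of 7 called lower (Fshr, Nr5a2, Fst and Gja1) by their most variable probe sets. With every probe set of the granulosa list counted, 10 of 18 were called lower, against 4.66% of all probe sets. The array median of the granulosa markers lay between -1.67 and -0.85 in wild type after hCG, against 0.36 to 0.61 in wild type after PMSG. The surface epithelium genes Krt7 and Krt18 and the leukocyte gene Cd52 were called higher there, as were 5.10% of all probe sets. The part of these cells in the differences of Rbp4, Aldh1a1, Aldh1a2 and the other genes was not tested.

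**Figure D4:**
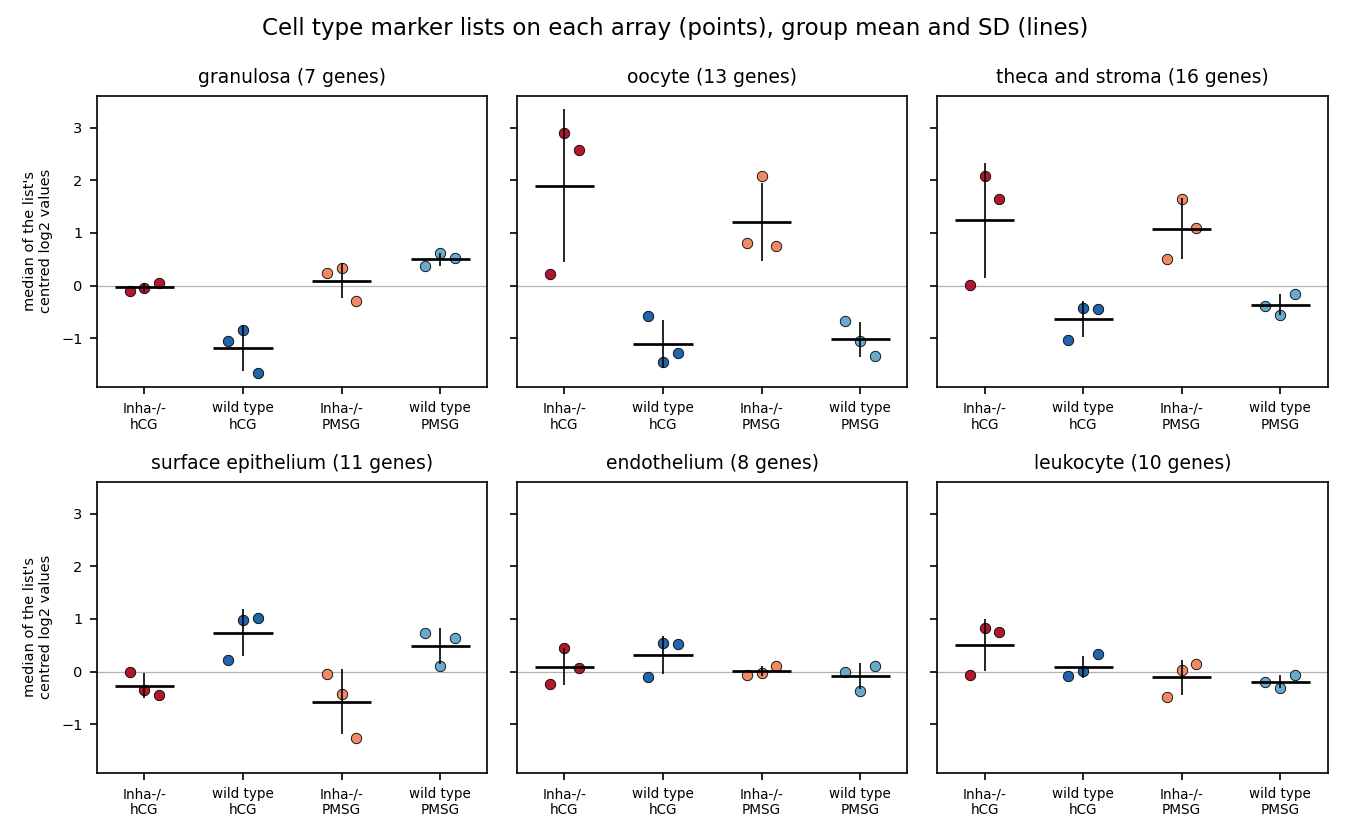
Median over the genes of a marker list of their centred log2 values (y axis) on each array (points) of the 4 groups (x axis), for 6 cell types, with the group mean (horizontal line) and SD (vertical line, n = 3). The oocyte list and the theca and stroma list lie above 0 on all Inha-/- arrays and below 0 on all wild type arrays.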

How the data were processed

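RNA of 12 granulosa cell samples was measured on Affymetrix mouse arrays, 1 array a sample. Per the submitters' processing notes the authors used GCRMA, of a version not given in the sources used here, and deposited log2 expression values. Every probe set of the deposited table has a median of 0 over the 12 arrays (largest absolute median 5e-07), so the authors' table was centred, a step the labels do not state. Base 2 was checked by the widest probe set, whose span of 13.3 units could not occur in natural log units (at most 11.1 for a 16-bit scanner). Of 45101 probe sets, 64 controls were left out, and no filter was applied to the rest.

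Groups came from the titles and characteristics. The limma package (3.58.1, under R 4.3.3) fitted 1 mean a group to all 12 arrays, with moderated variances (8 residual and 1.27 prior degrees of freedom). Adjustment of p-values was by Benjamini-Hochberg within each contrast, over 45037 probe sets. The number of arrays limits the precision. ± gives the SE of a difference, and intervals were taken at 95%. Fold changes are 2 to the power of the log2 difference. The fit was tested on simulated data for Inha-/- against wild type after PMSG (45037 probe sets). It called 33 of 100 changed probe sets at a log2 change of 1 and 66 of 100 at 2. The changed probe sets were drawn from the 60% with the largest SD, and the rest were left unchanged. Recovery in the measured data can therefore differ.

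Probe sets were named from the annotation given with the series, and the members' positions and promoters come from RefSeq (GRCm38.p6). Named genes were Inha, the 9 retinoid genes, genes from among the up to 4 called with the smallest adjusted p in each list and contrast, and the 3 genes nearest in pattern to each of Rbp4, Aldh1a1 and Cyp26b1. Values of further probe sets of a named gene and of Aldh1a7 stand beside them. The members and lists were chosen with earlier results of these data known. Lists of markers covered granulosa cells, oocytes, theca and stroma, surface epithelium, endothelium, leukocytes and red blood cells. Each marker gene was counted by 1 probe set, the one with the largest SD over all arrays. For endothelium, leukocytes and red blood cells no gene was called between the genotypes. Of the granulosa list, Inhba and Fst were higher in Inha-/- cells after hCG (over all probe sets, Gja1 was called higher too).

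No batch is named in the labels. Array names carry a number that links the PMSG arrays of both genotypes in replicate 1, those in replicate 2, and, in wild type after hCG, replicates 2 and 3. Serial numbers split the arrays into 7 early and 5 late ones. All wild type PMSG arrays were early, and all late arrays but replicate 3 of Inha-/- after PMSG were hCG arrays. Serial number and treatment therefore cannot be fully told apart. Alternatives were another normalization, a filter on SD, 1 probe set a gene, array weights, the serial split, the name number and the replicate number as blocks, only the arrays compared, and each array left out in turn.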

Additional observations from a re-analysis of the deposited data

Results flagged for a closer look

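The difference between the hCG responses of the genotypes passed the test for Aldh1a3 (-2.42 ± 0.13 on the log2 scale, adjusted p = 7.47e-05), and the call held in 21 of 21 alternatives (adjusted p = 2.66e-05 to 0.00258). The value comes from 1 of 3 probe sets, and the other two gave -0.75 and -0.24 without a call (adjusted p = 0.845 and 0.711).

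For Nrip1 the values with hCG had opposite signs by 1 of its 6 probe sets. They were 1.26 ± 0.51 in Inha-/- cells, not called (adjusted p = 0.544), and -2.31 ± 0.51 in wild type cells (adjusted p = 0.0213). The wild type call was lost without replicate 2 or 3 after PMSG or replicate 1 or 3 after hCG. The difference between the genotypes in this response was 3.58 ± 0.73. That difference was tested and not called (adjusted p = 0.0703), and the other 5 probe sets gave 0.06 to 3.03 (adjusted p = 0.175 to 0.845).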

How the results depend on the processing

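No result changed direction while called. Of the 6 tested retinoid genes, 0 were called between the genotypes after hCG in the fit reported, 2 (Stra6 and Aldh1a2) with the SD filter or with 1 probe set a gene, and 1 with array weights or with only the arrays compared. After PMSG the count was 1 as reported, 0 with array weights and with only the arrays compared, and 2 with the name number as a random block (correlation 0.618). Leaving out each array in turn gave 0 to 1 for hCG in wild type cells, the 1 being Aldh1a2 without replicate 2 of wild type after PMSG. With the replicate number as a block the count after PMSG was 1, and the other 4 contrasts did not change. Samples of the same replicate number correlated by -0.14 to 0.25 in their deviations from the group means, and not every pair was above 0.1, so the number was not taken as a pairing. The PMSG pairs that also share an array name number correlated by 0.19 and 0.25. The causes of these shifts were not tested, other than that the filter leaves fewer probe sets to adjust over. Of the alternatives for single members, 713 kept the side of the threshold or the size of the value, 40 moved beyond the SD, 8 passed the threshold newly and 2 lost it. Crabp1 and Rarb had no value under the SD filter. Of the values of list genes, 600 kept their call and 222 lost it. With the replicate block those lost included Lrp1 between the genotypes after PMSG and Rdh10 with hCG in both genotypes. Centred values give no signal over background, so low probe sets could not be set apart, and the fit finds larger changes more often than small ones at 3 arrays a group.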
